A study of Homo sapiens with 2 samples.

Results

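The steroid receptor chaperones and immunophilins are the proteins that hold the progesterone receptor (PGR) and its relatives in a form that can bind hormone. The set was HSP90AA1, HSP90AB1, STIP1, ST13, PTGES3, FKBP4, FKBP5, AHSA1 and CDC37, and its members were every probe set annotated to exactly 1 of these symbols. This gave 21 of 41097 probe sets with 1 gene symbol, and 8 of the 9 genes. AHSA1, an activator of the HSP90 ATPase, had no such probe set in the annotation used and was not analysed here. Gene expression was measured on a 3' expression array in AsPC-1, a human pancreatic ductal adenocarcinoma cell line. The cells received control siRNA or PGR siRNA, a treatment that lowers the mRNA it matches, with 1 array per condition and no replicates. All cells were grown in medium with serum, named as DMEM in the sample labels and as another medium in the methods. No hormone treatment is named for either sample. The series compared PGR-interference cells with control cells across all genes, and the values below are those of the receptor's folding machinery.

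The methods list duplexes called si-PGR-1 and si-PGR-2 against PGR and do not say which was used for the array. Their strands are shown because they define the treatment, 5′ to 3′, with the overhang of 2 bases in capitals after 19 paired bases.
si-PGR-1 sense: ggcaauugguuugaggcaaTT
si-PGR-1 antisense: uugccucaaaccaauugccTT
si-PGR-2 sense: gcugcacaauuacccaagaTT
si-PGR-2 antisense: ucuuggguaauugugcagcTT

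Newly made steroid receptors pass through an ordered chaperone cycle. HSP70 with its cofactor ST13 (HIP) takes the receptor first, STIP1 (HOP) bridges HSP70 and HSP90, and the receptor reaches its hormone-binding state on HSP90 closed by PTGES3 (p23) and joined by an immunophilin. FKBP4 (FKBP52) favours and FKBP5 (FKBP51) restrains hormone binding, and FKBP5 is itself a classic gene induced by progestins, glucocorticoids and androgens. CDC37 serves mainly kinases rather than receptors. HSP90AA1 is the stress-inducible and HSP90AB1 the constitutive cytosolic HSP90.

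Values are linear intensities as deposited, on arrays the authors had scaled to a common level. Differences are log2(intensity + 1), PGR siRNA minus control. The signal floor was 97.9, the median of all intensities of named probe sets, and a probe set was past it if either array reached it. Sizes of 1.5-fold and 2-fold served as rules of size, because 1 array per condition allows no test. The brighter PGR probe set, 228554_at, read 16.1 on the control-labelled array and 73.3 on the siRNA-labelled array. The other, 208305_at, read 1.53 and 4.80. All lie below the floor and in an order against the labels, so the arrays do not check the knockdown and every direction here rests on the labels. Among markers of cell identity, 5 of 7 epithelial or ductal genes read at least 1000 on both arrays, among them EPCAM and KRT19. MUC1 and CEACAM6, also on that list, read 122 and 120 on the control-labelled array and 174 and 79.3 on the other. The highest value among the fibroblast, leukocyte and endothelial markers was 299, of COL1A1. The summed epithelial intensities were 116479 on the control-labelled array and 121720 on the other.

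None of the 18 member probe sets past the floor differed by 1.5-fold between the arrays. Over all 21528 probe sets past the floor, 10.8% did so in either direction, and over the 7355 that read at least 1000 on both arrays, as 16 of the 18 did, only 0.802% did. The members' differences ran from -0.12 to 0.36, the latter a 1.28-fold difference. Their median was 0.16, beside 0.0060 over all probe sets past the floor, and 15 of the 18 were above 0, beside 50.8% of all. Of the 16 that read at least 1000 on both arrays, 13 were above 0, with a median of 0.16. Over the 7355 of that class 55.2% were above 0, with a median of 0.023. With quantile normalization 11 of the 18 were above 0 and with loess 13. Of the 16 bright members, 14 lay within the middle 90% of all such probe sets, which ran from -0.31 to 0.29. Read by the brightest probe set of each gene, the 8 genes had a median of 0.083, beside 0.021 over 11614 genes, and 7 of the 8 were above 0, beside 53.2% of all genes. With quantile normalization HSP90AA1, ST13 and PTGES3 joined STIP1 below 0. The median of the 8 was then 0.0059, below the 0.015 of all genes.

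**Figure D1:**
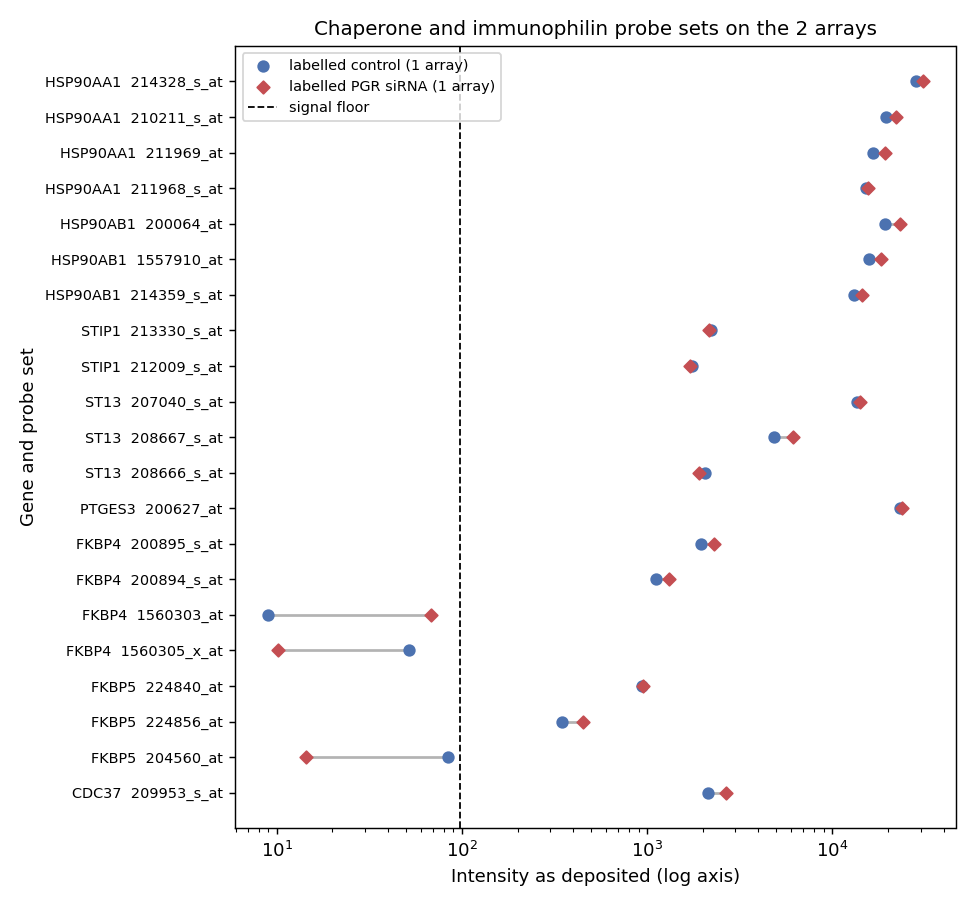
Intensity as deposited (log axis) of each member probe set on the control-labelled array (circles) and the siRNA-labelled array (diamonds), 1 array each, with the signal floor of 97.9 as a dashed line. The pairs of symbols lie close together above the floor, and the 3 wide pairs, from FKBP4 and FKBP5, lie below it.

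Both cytosolic HSP90 genes stood slightly higher on the siRNA-labelled array by every probe set as deposited. HSP90AA1 read 28513 on the control-labelled array and 30845 on the siRNA-labelled array with its brightest probe set, 214328_s_at, a difference of 0.11 on the log2 scale. Its other probe sets differed by 0.18 (210211_s_at, 19448 and 22058), 0.22 (211969_at, 16705 and 19396) and 0.034 (211968_s_at, 15292 and 15652). The 4 probe sets thus spanned 0.18 among themselves, more than the difference that the brightest shows. HSP90AB1 read 19386 and 23272 with 200064_at, a difference of 0.26. The other HSP90AB1 probe sets gave 0.21 (1557910_at, 15838 and 18265) and 0.15 (214359_s_at, 13046 and 14429). All of these are far below 1.5-fold, which is 0.58 on this scale.

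The upward lean of the HSP90 probe sets was shared by other bright probe sets on these arrays. Of the 572 probe sets that read at least 10000 on both arrays, 77.4% were above 0, with a median of 0.11. The 9 members in that class were all above 0, with a median of 0.15. With quantile normalization the median of the 572 was 0.0020, that of the 9 members was 0.090, and 5 of the 9 were above 0. HSP90AA1 by its brightest probe set turned to -0.059 with quantile normalization, and 5 of the 7 HSP90 probe sets stayed above 0. With loess 6 of the 7 did, with HSP90AA1 at 0.050 and HSP90AB1 at 0.21. The part of the trend with signal in the members' differences was not tested. Probe sets ending in _s_at can bind related transcripts, and the HSP90 genes and ST13 have processed pseudogenes, and 12 of the 18 member probe sets past the floor carry that ending.

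**Figure D2:**
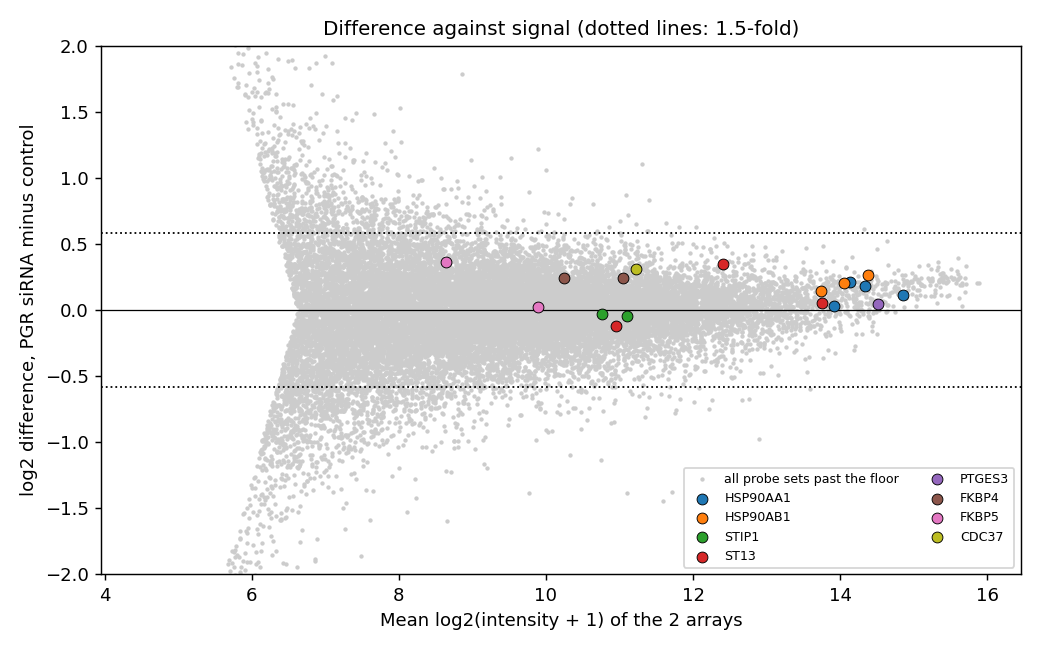
Log2 difference (siRNA-labelled minus control-labelled array) against mean log2(intensity + 1), with 1 grey point per probe set past the floor, members coloured by gene, and dotted lines at 1.5-fold. The members sit inside the cloud, which bends above 0 at its bright end, and 196 grey points beyond 2 in either direction are outside the axes.

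The genes that pass a receptor from HSP70 to HSP90 and close the HSP90 complex differed little. STIP1 read 2221 on the control-labelled array and 2157 on the siRNA-labelled array with 213330_s_at, a difference of -0.042, and 1755 and 1715 with 212009_s_at, a difference of -0.033. It was the only 1 of the 8 genes below 0 by all its probe sets past the floor, and its probe sets agreed to within 0.0094. ST13 read 13617 and 14117 with 207040_s_at, a difference of 0.052. Its other probe sets ran in opposite directions, 0.35 with 208667_s_at (4825 and 6132) and -0.12 with 208666_s_at (2069 and 1906). ST13 was thus the gene with the widest spread among its probe sets past the floor, 0.46, and the arrays give it no direction. PTGES3 had a single probe set, 200627_at, which read 23176 and 23924, a difference of 0.046 that turned to -0.013 with loess and to -0.057 with quantile normalization.

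The immunophilins were read by pairs of probe sets past the floor. FKBP4 read 1951 on the control-labelled array and 2309 on the siRNA-labelled array with 200895_s_at and 1114 and 1319 with 200894_s_at. The 2 differences were both 0.24, equal to within 0.0011, and FKBP4 lay between 0.23 and 0.26 under all settings tried. The upper end is the mean over all 4 probe sets, in which 2 below the floor differ widely in opposite directions. The size is within the middle 90% of probe sets of such signal, and the agreement of probe sets on the same 2 arrays is not agreement between cultures. FKBP5 read 938 and 952 with 224840_at, a difference of 0.021, and 349 and 449 with 224856_at, a difference of 0.36. The hormone-induced immunophilin was therefore not lower on the siRNA-labelled array by either probe set past the floor, and the 2 disagreed in size by 0.34.

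The other probe sets of these genes lay under the floor throughout and pointed in different directions. FKBP4 read 8.99 and 68.0 with 1560303_at and 51.9 and 10.2 with 1560305_x_at, differences of 2.79 and -2.24. FKBP5 read 84.4 and 14.5 with 204560_at, a difference of -2.46. All 3 passed 2-fold, as did 44.4% of the 19569 probe sets below the floor on both arrays, so no direction was read from them. They matter for FKBP5, because the mean over all its probe sets was -0.69, past 1.5-fold, whereas the mean of those past the floor was 0.19.

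CDC37 had the largest difference among the 8 genes read by the brightest probe set. Its single probe set, 209953_s_at, read 2147 on the control-labelled array and 2657 on the siRNA-labelled array, a difference of 0.31. It lay between 0.29 and 0.32 under all settings tried. CDC37 and 208667_s_at of ST13 were the 2 bright member probe sets beyond the middle 90% of probe sets of such signal, both on the high side, and neither reached 1.5-fold.

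**Figure D3:**
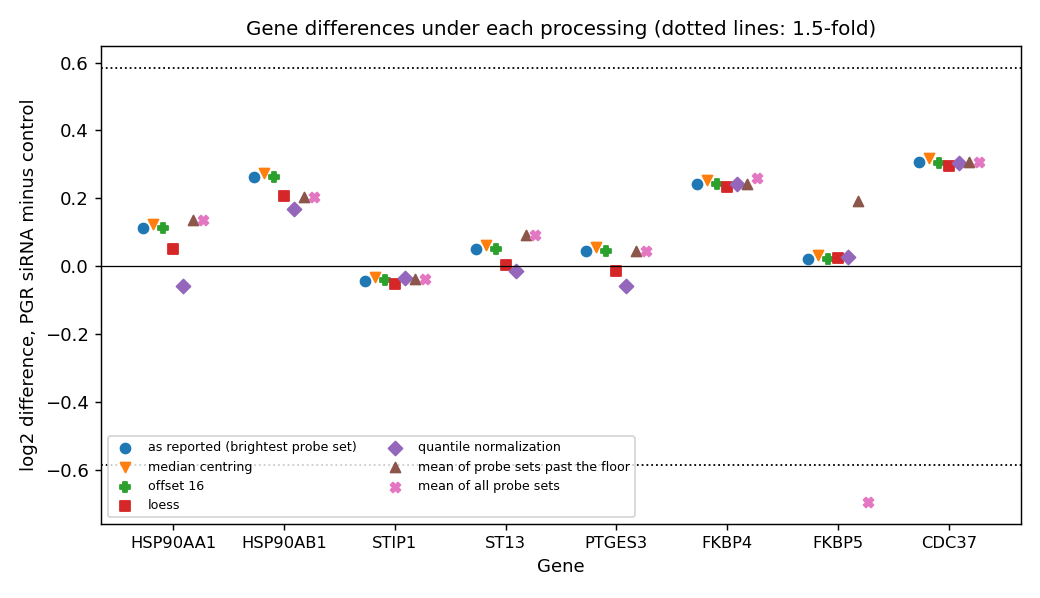
Log2 difference (siRNA-labelled minus control-labelled array) of each gene under the reported processing and 6 alternatives, with dotted lines at 1.5-fold. CDC37 and FKBP4 hardly move, HSP90AA1, ST13 and PTGES3 cross 0 with quantile normalization and PTGES3 also with loess, and FKBP5 passes 1.5-fold only as the mean over all its probe sets, at -0.69.

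Promoter sequences were searched for letters that heat shock factors and progesterone or glucocorticoid receptors are known to bind. RefSeq windows of GRCh38.p14, from 250 bases before to 50 after a start site, were found for 6 of the 8 genes, 11 windows in all, and none were found for FKBP4 and ST13. The heat shock element was searched as TTCNNGAANNTTC or its reverse complement GAANNTTCNNGAA, on both strands. It was in 1 window each of HSP90AA1 and HSP90AB1, and in 0.49% of 35116 windows of all genes. The shorter TTCNNGAA, which the longer element contains, was in windows of those genes and in 1 of STIP1, starting at base 14 of the transcript, and in 7.74% of all windows. GAANNTTC was in 2 member windows and in 6.77% of all. The full receptor element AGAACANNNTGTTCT was in none of the 11 windows and in 0.00285% of all. With a share so low, its absence from 11 windows tells nothing about the members, and sequence outside the windows was not searched. Its single arm AGAACA, on either strand, was in 1 window of FKBP5, at the first base of the transcript, and in 1 of HSP90AB1, where it overlaps a heat shock element, and in 14.8% of all windows. A match is a description of letters and not a bound site.

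The windows are printed for the HSP90 genes, whose probe sets leaned the same way as deposited, and for FKBP5, the gene known for its response to progestins. Capitals mark TTCNNGAA and GAANNTTC in the HSP90 windows and AGAACA in the FKBP5 window. For each of these genes the window with a match is shown, 1 of 2 for HSP90AA1, 1 of 3 for HSP90AB1 and 1 of 2 for FKBP5. The HSP90AA1 window shown is chr14:102086995-102087294 on the minus strand, the HSP90AB1 window chr6:44247693-44247992 on the plus strand and the FKBP5 window chr6:35728534-35728833 on the minus strand, each shown 5′ to 3′ on the strand of its gene.
HSP90AA1: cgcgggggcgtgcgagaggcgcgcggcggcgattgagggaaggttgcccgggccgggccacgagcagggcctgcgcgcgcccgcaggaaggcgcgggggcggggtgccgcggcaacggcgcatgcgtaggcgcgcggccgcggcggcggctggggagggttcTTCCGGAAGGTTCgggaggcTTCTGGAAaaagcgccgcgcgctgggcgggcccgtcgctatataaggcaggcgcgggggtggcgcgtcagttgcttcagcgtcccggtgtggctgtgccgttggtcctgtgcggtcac
HSP90AB1: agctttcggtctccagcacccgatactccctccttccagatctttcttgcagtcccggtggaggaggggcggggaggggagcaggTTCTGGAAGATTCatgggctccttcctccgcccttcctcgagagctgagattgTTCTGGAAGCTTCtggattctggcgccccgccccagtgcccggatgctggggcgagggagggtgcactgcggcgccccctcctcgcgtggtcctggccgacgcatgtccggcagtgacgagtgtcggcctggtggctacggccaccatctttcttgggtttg
FKBP5: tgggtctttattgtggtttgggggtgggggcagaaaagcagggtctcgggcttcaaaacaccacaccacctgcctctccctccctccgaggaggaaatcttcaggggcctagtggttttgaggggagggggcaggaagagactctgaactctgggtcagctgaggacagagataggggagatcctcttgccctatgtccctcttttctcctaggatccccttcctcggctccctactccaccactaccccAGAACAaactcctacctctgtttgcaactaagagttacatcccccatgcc
In HSP90AA1 the element TTCCGGAAGGTTC starts 88 bases before the start site of the window shown, and a separate TTCTGGAA starts 68 bases before it. In HSP90AB1 the elements TTCTGGAAGATTC and TTCTGGAAGCTTC start 165 and 112 bases before the start site of the window shown. For both HSP90 genes that window is the most downstream of those found, so its elements lie downstream of the gene's other start sites. The FKBP5 window shown is the more upstream of those found. The other windows of HSP90AA1, HSP90AB1 and FKBP5 held none of the letters searched, nor did the windows of CDC37 and PTGES3.

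The wider chaperone network was read from lists by the brightest probe set of each gene, against a background in which 3.65% of 11614 genes stood 1.5-fold or more above 0 and 4.72% as far below. The remaining HSP90 paralogs, HSP90B1 of the endoplasmic reticulum and TRAP1 of mitochondria, stood at 0.17 and 0.12. Of 23 other HSP90 cochaperones past the floor, none passed 1.5-fold, and 11 were above and 12 below 0, with a median of -0.033. TELO2, which joins HSP90 to the maturation of large kinases, was highest at 0.51 (175 and 250), and its other probe set, at 0.72 (152 and 252), did pass 1.5-fold. TTC4, which binds HSP90 and HSP70, followed at 0.28. FKBPL, an FKBP-like cochaperone, was lowest at -0.50 (377 and 267), and RPAP3, a cofactor of HSP90 in complex assembly, stood at -0.38 with its other probe set at 0.048. Of 25 further probe sets of these cochaperones past the floor, 5 passed 1.5-fold as read, that of TELO2 among them, beside 10.8% of all probe sets past the floor. That of FNIP2, at -0.61 (473 and 310), and 1 of FNIP1, at 0.61 (303 and 463), did so with both arrays past the floor, as did that of TELO2. Those of AHSA2P (96.5 and 146) and the other of FNIP1 (101 and 55.4) read below the floor on 1 array. Against the floor they were at least 1.49-fold higher and 1.03-fold lower, bounds that do not reach 1.5-fold.

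Of 19 genes of the HSP70 machine past the floor, none passed 1.5-fold, with a median of 0.036, or -0.0052 with quantile normalization. HSPA1L was highest at 0.45, read at 119 and 163, close to the floor. DNAJB4, an HSP40, followed at 0.22. HSPBP1, a nucleotide exchange factor of HSP70, was lowest at -0.21 and HSPA4, an exchange factor of the HSP110 type, stood at -0.16, with its probe sets ranging up to 0.073. Of 26 further probe sets of this list past the floor, 2 passed 1.5-fold as read, beside 10.8% of all probe sets past the floor. That of HSPA4L stood at -0.64 (869 and 557). That of HSPA9 (78.4 and 124) read below the floor on the control-labelled array and was at least 1.27-fold higher against the floor. HSPA8, HSPA1A and HSPA1B, the main cytosolic HSP70s, had no probe set with their symbol alone. Genes of the heat shock response had a median of 0.11 over 10 genes, or 0.016 with quantile normalization. HSPD1 and HSPE1, the mitochondrial chaperonins, stood at 0.18 and 0.062, the small heat shock protein HSPB1 at 0.17 and HSF1, the heat shock factor, at -0.018. SERPINH1, the collagen chaperone of the endoplasmic reticulum, was the 1 of these 10 past 1.5-fold, at 1.06, with 710 on the control-labelled array and 1482 on the siRNA-labelled array by its single probe set. UBB, a ubiquitin gene, was the next highest at 0.22 and CHORDC1, a cochaperone, the lowest at -0.16. HSPH1, DNAJB1 and BAG3 stood at 0.20, 0.035 and -0.00042. HSPA6 and CRYAB stayed below the floor, and 4 genes of this list had no probe set with their symbol alone.

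Of 19 other FKBPs and cyclophilins past the floor, 1 was at least 1.5-fold higher and none lower, with a median of -0.030, which loess turned to 0.0068. PPIF, the cyclophilin of mitochondria, was the 1, at 0.60 (2177 and 3290). Its other probe set, at 0.091 (1643 and 1750), did not pass, and with loess none of the 19 did. FKBP2, of the endoplasmic reticulum, followed at 0.44. FKBP11, also of the endoplasmic reticulum and named after its values were seen, stood at 0.35 with its brightest probe set and at 1.01 (466 and 939) with another. PPIL1, a cyclophilin of the spliceosome, was lowest at -0.29 and PPIG, a nuclear cyclophilin, stood at -0.21.

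**Figure D4:**
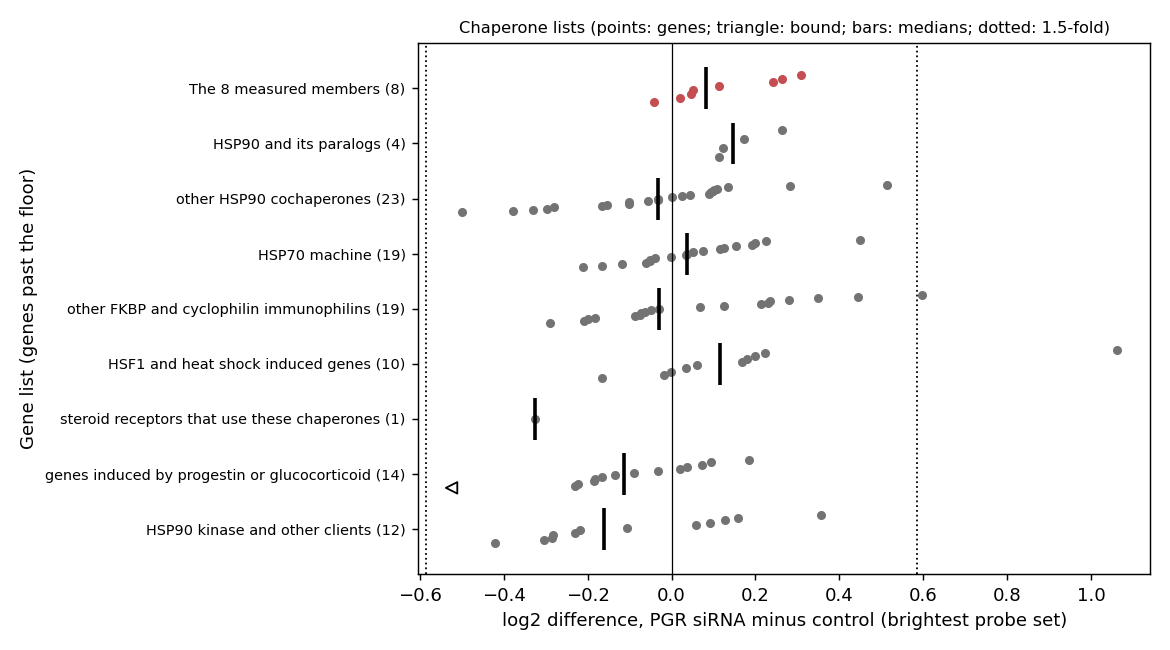
Log2 difference (siRNA-labelled minus control-labelled array) of each gene past the floor, by its brightest probe set, for the 8 measured members (red) and the other lists (grey), with black bars at list medians and dotted lines at 1.5-fold. The points past the dotted lines are PPIF at 0.60 and SERPINH1 at 1.06, and the open triangle is TAT at its bound of 1.44-fold lower, since it read below the floor on the siRNA-labelled array.

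The steroid receptors measured here were near or below the floor. Besides PGR, NR3C1 (the glucocorticoid receptor), ESR1 and ESR2 (the estrogen receptors) stayed below the floor by every probe set with that symbol alone, on either array. NR3C2, the mineralocorticoid receptor, read 159 and 127, a difference of -0.33. Genes known to be induced by progestins or glucocorticoids, a list that includes FKBP5, had a median of -0.11 over 14 genes, beside 0.021 over 11614 genes. TAT, a liver enzyme of tyrosine breakdown, read 141 on the control-labelled array and 17.2, below the floor, on the siRNA-labelled array. Against the floor it was at least 1.44-fold lower, a bound that does not reach 1.5-fold. CCND1, a cyclin of the G1 phase, followed at -0.23, with its other probe set at -0.60. TSC22D3, a glucocorticoid-induced leucine zipper protein, stood at -0.089, SGK1, a kinase, at 0.073 and MT1X and MT2A, metallothioneins, at 0.093 and 0.18, the highest of the list. In this list 5 genes were above and 9 below 0, beside 53.2% above 0 over all genes past the floor. The 13 with both arrays past the floor were within 1.5-fold by their brightest probe set. DUSP1 and KLF9, named after their values were seen, stood at -0.14 and -0.17, and each had another probe set past the floor on 1 array only. That of DUSP1 read 137 and 45.8, at least 1.40-fold lower against the floor, and that of KLF9 read 29.9 and 98.5, at least 1.01-fold higher.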

How the data were processed

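Total RNA of AsPC-1 cells was labelled with biotin and hybridised to 3' expression arrays, 1 for control siRNA and 1 for PGR siRNA. The table the authors deposited holds a linear intensity for each probe set on each array. Both arrays had a mean of 500.1 once 2% of values were dropped at either end, which shows a common scaling before deposition. That leaves a trend of the difference with signal in place. How probe sets were summarised is not given in these sources. The number of arrays limits the precision.

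The scale used was log2(intensity + 1). In the platform annotation 41097 probe sets had 1 symbol, 1801 several and 11777 none, and only the first were kept. RefSeq held the gene identifier of all but 54 of these and changed no symbol. The brightest probe set stood for each of 19775 genes. The floor was the median of named intensities. Neither a test nor an error was computed. Members and the 8 gene lists were chosen with earlier results of these data known. The text names the members, PGR, and from each list the genes past 1.5-fold, or else those 2 at either end; others were named after their values were seen. Alternatives were the mean of a gene's probe sets, median centring, quantile normalization, loess (span 0.7), an offset of 16, a filter at the 75th percentile (623), none, or on both arrays, and 2-fold. The calculation was tested on simulated data. Software was Python 3.11.15 with matplotlib 3.10.9, statsmodels 0.14.6, scipy 1.17.1, pandas 2.3.3 and numpy 2.4.6.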

Additional observations from a re-analysis of the deposited data

How the results depend on the processing

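Of 92 values recomputed for the members, 85 kept their direction and moved by less than 0.26 on the log2 scale, the SD among probe sets of 1 gene past the floor on both arrays over 5203 genes, or, for a count, did not change. The signal filters kept each gene's brightest probe set, so they could not change its difference. Averaging could not change PTGES3 or CDC37, each with a single probe set. The 85 therefore include values that these settings could not alter. With quantile normalization HSP90AA1 was -0.059, ST13 -0.015 and PTGES3 -0.057, and with loess PTGES3 was -0.013, all small positive differences as deposited. With the mean of all probe sets FKBP5 was -0.69 and 1 gene passed 1.5-fold, against 0 probe sets in the reported setting, because that mean takes in a probe set below the floor. The mean of probe sets past the floor, chosen after seeing the data, gave 0.19 for FKBP5. With no signal filter the count of member probe sets past 1.5-fold was 3, all below the floor on both arrays. The median over the genes ran from 0.0059 to 0.16 and kept its sign, but not its place above the median of all genes past the floor. With quantile normalization it was 0.0059, below the 0.015 of all genes, and with loess 0.037, beside 0.015. No paired analysis was possible because there is 1 array per condition. With 1 array per condition no replicate could be left out, and a difference smaller than the scatter of probe sets of like signal cannot be told from none here. That scatter is among probe sets on the same arrays and does not measure variation between cultures. A difference beyond it is therefore not shown to be 1 between treatments.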

Other observations

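Genes of HSP90 client proteins past the floor numbered 12, with a median log2 difference of -0.16, none of them past 1.5-fold, with 5 above and 7 below 0. Over all genes past the floor the median was 0.021, 53.2% were above 0, and 3.65% and 4.72% stood 1.5-fold or more above and below 0. The lowest were CDK6, a kinase of the cell cycle, at -0.42, with its probe sets past the floor ranging from -0.84 to 0.25, and AHR, the dioxin receptor, at -0.30. The receptor tyrosine kinases MET and EGFR stood at -0.28 and -0.23, with probe sets past the floor from -0.88, read below the floor on the siRNA-labelled array, to 0.44 for MET and from -0.23 to 0.15 for EGFR, and AKT1 stood at -0.28. SRC, a tyrosine kinase, was highest at 0.36, by the only 1 of its 7 probe sets past the floor. Averaging all 7 gave -0.15, a mean that takes in the probe sets below the floor. ERBB2, a receptor kinase, stood at 0.16. The median was -0.17 with quantile normalization and with loess. Of 12 further probe sets of this list past the floor, 3 passed 1.5-fold as read, all lower, beside 10.8% of all probe sets past the floor. CDK6 had 2 of them, at -0.84 (694 and 387) and -0.60 (766 and 506). That of MET (170 and 91.9) was at least 1.74-fold lower against the floor. Protein levels were not measured on the arrays.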
